A study of Mus musculus with 16 samples.

Results

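The lymphotoxin, RANK and BAFF axis was followed here through 10 genes, taken by symbol from the 54838 identifiers that the authors counted. It holds 5 ligands (Lta, Ltb, Tnfsf14, Tnfsf11 and Tnfsf13b) and 5 receptors (Ltbr, Tnfrsf1a, Tnfrsf11a, Tnfrsf11b and Tnfrsf13c), and all 10 passed the filter on low counts. Their RNA was compared between 2 fractions of the spleen of C57BL/6 mice, with 8 samples of each. Size-selected samples are the cells that a strainer held back after the tissue had been digested with enzymes and its red blood cells lysed, and their labels name the source as spleen glia. The other 8 samples are whole spleen, whose labels carry the same protocol text and describe no separate preparation. The same 8 numbers occur in both groups (407, 408, 427 and 435 from males, 436, 445, 447 and 460 from females), so that each number gives 1 pair. The labels give no age, treatment or genotype beyond the strain, and do not say that the numbers are separate animals, so the p-values measure the spread between these samples.

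Members of this family signal mostly as trimeric ligands on 1 cell that bind receptors on another. Lymphotoxin made by B cells, T cells and innate lymphoid cells binds the lymphotoxin-beta receptor on stromal cells, which switches on the NF-kB pathways and the chemokines that keep B cell follicles and T cell zones apart. RANK ligand acts through RANK, and osteoprotegerin is a secreted decoy for it. BAFF is the survival factor of mature B cells and acts through the BAFF receptor on those cells.

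In the size-selected samples the receptors Ltbr, Tnfrsf1a, Tnfrsf11a and Tnfrsf11b and the ligand Tnfsf13b were higher than in whole spleen. The ligands Lta, Ltb and Tnfsf14 and the B cell receptor Tnfrsf13c were lower, and Tnfsf11 was not called either way. The largest difference was that of Tnfsf13b, which encodes BAFF, at 42.6-fold higher, and the largest falls were those of Ltb, at 2.76-fold lower, and Tnfsf14, at 2.62-fold lower. Tnfsf14 fell more than Ltb in the females alone and without number 435. Thus 9 of the 10 genes were called (edgeR quasi-likelihood F test, adjusted p under 0.05 over the 14510 genes tested), 5 higher and 4 lower, beside 67.9% of all genes tested, 37.5% of them higher and 30.4% lower. Tnfsf13b and Tnfrsf11b did not pass the filter on low counts in whole spleen alone. They entered the test through the size-selected samples, where they were higher. When the log2 fold change also had to reach 1 in either direction, 8 of the 10 were called, beside 33.4% of all genes. The CPM ranges of the groups (counts scaled by TMM to a common library size, as CPM) did not overlap for 5 of the 10, beside 34.9% of all genes, and the direction was the same in all 8 pairs for 8 of the 10, beside 53.6%. The median log2 fold change of the 10 genes was 0.74, and that of all genes tested was 0.05. Scaling by library totals in place of TMM moved the median of all genes to 0.18, and 9 of the 10 genes were still called. In bulk RNA, fewer cells of a type and less RNA per cell cannot be told apart.

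**Figure D1:**
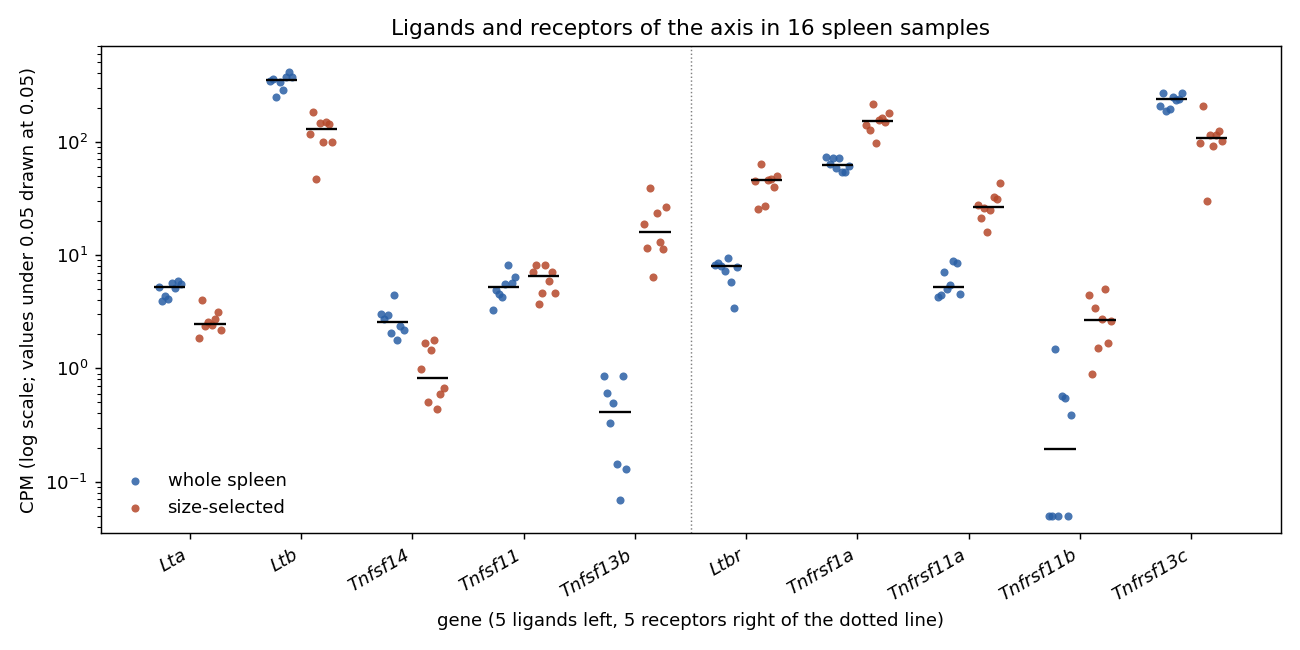
RNA level of each gene in CPM (log axis) in every whole spleen (blue) and size-selected (red) sample, with a bar at each median and values under 0.05 drawn at 0.05. Tnfsf13b, Ltbr, Tnfrsf1a and Tnfrsf11a lie higher in every size-selected sample than in any whole spleen sample, Ltb lies lower in every one, and the points of Tnfsf11 overlap.

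Totals ran from 13119992 to 19944440 estimated counts in the size-selected samples and from 12153770 to 16282454 in whole spleen. Markers of other cell types moved with the fractions. The summed level of 7 fibroblast markers was 1061 to 3664 CPM in the size-selected samples and 5.02 to 57.6 in whole spleen, and all 7 were called higher. That of 6 endothelial markers was 536 to 1358 against 72.8 to 169 CPM, also with all 6 higher. The glia of the label were present but at low levels. Of their markers, Cdh19 averaged 20.8 ± 24.8 CPM in size-selected and 0.0836 ± 0.121 in whole spleen samples (SD, n = 8), S100b 7.78 ± 5.01 and 0.0817 ± 0.175, and Fabp7 18.8 ± 8.17 and 0.0796 ± 0.155. These 3 were called higher. Sox10 and Foxd3 were below the filter on low counts. B cell markers remained in the size-selected samples at 926 to 3362 CPM, against 5468 to 6712 in whole spleen, with 6 of 7 called lower. With the number as a replicate block 7 of 7 were called lower. T cell markers were at 74.6 to 487 CPM against 689 to 1033, with 7 of 7 lower. How far these shifts in marker levels account for the differences of the 10 genes was not tested.

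The DNA before the first annotated base is shown for Ltb and Ltbr, the lymphotoxin ligand and receptor that moved apart, and for Tnfsf13b, which had the largest difference. It was searched for the binding consensus of NF-kB, the pathway that these receptors feed. The sequences are RefSeq's on GRCm38.p6, written 5′ to 3′ on the gene's strand and ending at the base before the GENCODE M21 start. Capitals mark the match to the kB consensus.
Ltb, chr17:35194257-35194438, plus strand: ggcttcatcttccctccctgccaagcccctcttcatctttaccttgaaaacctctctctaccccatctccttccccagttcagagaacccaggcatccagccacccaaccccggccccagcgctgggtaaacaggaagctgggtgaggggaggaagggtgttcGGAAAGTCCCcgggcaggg
Ltbr, chr6:125313886-125314135, minus strand: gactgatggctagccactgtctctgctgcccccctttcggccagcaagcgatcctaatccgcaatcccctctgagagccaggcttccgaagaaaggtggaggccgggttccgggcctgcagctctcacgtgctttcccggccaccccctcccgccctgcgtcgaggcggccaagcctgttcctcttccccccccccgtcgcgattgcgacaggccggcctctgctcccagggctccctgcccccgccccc
Tnfsf13b, chr8:10006217-10006466, plus strand: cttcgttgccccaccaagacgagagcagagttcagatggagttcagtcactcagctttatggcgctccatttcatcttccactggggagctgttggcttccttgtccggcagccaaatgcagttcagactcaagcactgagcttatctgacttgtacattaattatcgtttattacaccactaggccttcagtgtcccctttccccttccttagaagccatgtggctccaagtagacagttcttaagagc
The consensus was searched on both strands in the RefSeq table's own windows, the 250 bases before each RefSeq start. These starts differ from the GENCODE start for some members, and for Ltb, Tnfrsf1a and the later of the Tnfsf13b windows they lie well inside the GENCODE gene. The table holds 9 of the members (Tnfrsf11b is the other), and of these Ltb alone matched. Of all 27025 genes in the table, 4.46% had a match in at least 1 window, and of all 32851 windows 3.9% held one. A match is a run of letters and not a measured binding site, and its absence from a window says nothing of the factor.

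Among the ligands, Ltb encodes lymphotoxin beta, which anchors the lymphotoxin heterotrimer in the membrane. The gene (ENSMUSG00000024399) lies on chr17:35194439-35196320, plus strand, on GRCm38 in GENCODE M21. In the size-selected samples Ltb ranged from 47.2 CPM in 427 through a median of 130 to 183 in 408, and in whole spleen from 248 in 427 through 349 to 409 in 447. Every size-selected sample was below every whole spleen sample. The log2 fold change, size-selected against whole spleen, was -1.46 (SE 0.20, edgeR adjusted p = 2.66e-06), and all 8 pairs were lower in the size-selected sample. Without number 427 it was -1.39 (adjusted p = 6.77e-08, edgeR).

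Lta encodes lymphotoxin alpha, the subunit of both the secreted homotrimer and the membrane heterotrimer, and sits close to Ltb with only Tnf between them. The gap is 6844 bases, and Lta (ENSMUSG00000024402) is on chr17:35203165-35205351, minus strand. Its level was far below that of Ltb. Lta ranged from 1.84 CPM in 407 through a median of 2.49 to 4.01 in 408 in the size-selected samples, and from 3.97 in 408 through 5.18 to 5.88 in 447 in whole spleen. The 7 size-selected samples other than 408 were below all whole spleen samples, while the 2 samples of number 408 were level. Its log2 fold change was -0.92 (SE 0.18, edgeR adjusted p = 0.0002), with 7 of 8 pairs lower. In the 4 male pairs alone the call was lost at -0.78 (edgeR adjusted p = 0.0786), and in the females alone it was -1.11 (edgeR adjusted p = 0.0013).

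Tnfsf14 encodes LIGHT, the other ligand of the lymphotoxin-beta receptor, which also binds the receptor encoded by Tnfrsf14. It lies on the same chromosome at chr17:57189492-57194177, minus strand (ENSMUSG00000005824). Its RNA was scarce, with 6.16 to 33.3 deposited counts in the size-selected samples and 26 to 62 in whole spleen. Tnfsf14 ranged from 0.439 CPM in 445 through a median of 0.83 to 1.8 in 436 in the size-selected samples, and from 1.79 in 445 through 2.55 to 4.46 in 436 in whole spleen. The numbers 445 and 436 were thus the lowest and the highest in both fractions, and the ranges met only at their edges. Between fractions the log2 fold change was -1.39 (SE 0.32, edgeR adjusted p = 0.000741), with all 8 pairs lower. The deposited size-selected values of Tnfsf14 are whole counts times a constant below 1, and with the constant divided out the log2 fold change was -1.14 (edgeR adjusted p = 0.00312).

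Tnfsf13b, the gene of BAFF, went the other way. It lies on chr8:10006467-10039072, plus strand (ENSMUSG00000031497). The whole spleen samples held 1 to 13 counts each and the size-selected samples 114 to 547. Tnfsf13b ranged from 6.39 CPM in 435 through a median of 15.8 to 39.0 in 427 in the size-selected samples, and from 0.0687 in 445 through 0.408 to 0.855 in 407 in whole spleen. The lowest size-selected sample was above the highest whole spleen sample, and the log2 fold change was 5.41 (SE 0.46, edgeR adjusted p = 8.80e-09), with all 8 pairs higher. The difference within a pair ran from 3.39 in 435 to 6.66 in 460 on the log2 CPM scale. The authors' deposited table, which lists 2201 genes with log2 fold changes of at least 3.50, held Tnfsf13b alone of the 10 genes. In the authors' deposited table its log2 fold change was 5.24 (SE 0.484, adjusted p = 5.53e-26), with a TPM of 14.2 in the size-selected group and 0.297 in whole spleen.

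Tnfsf11 encodes RANK ligand, which drives osteoclast and medullary epithelial differentiation and is made in lymphoid tissue by activated T cells, innate lymphoid cells and some stromal cells. It lies on chr14:78277445-78308043, minus strand (ENSMUSG00000022015). Tnfsf11 ranged from 3.72 CPM in 427 through a median of 6.51 to 8.23 in 408 in the size-selected samples, and from 3.27 in 407 through 5.24 to 8.11 in 445 in whole spleen. The ranges overlapped almost entirely, and the size-selected sample was higher in 5 of 8 pairs. In edgeR its log2 fold change was 0.21 (SE 0.21, edgeR adjusted p = 0.388). Its sign was not stable, being -0.01 in the females alone (edgeR adjusted p = 0.975) and 0.41 in the males alone (edgeR adjusted p = 0.326).

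The receptors of the lymphotoxins come from neighbouring genes on chromosome 6. Ltbr, the lymphotoxin-beta receptor (ENSMUSG00000030339, chr6:125306571-125313885, minus strand), is 35476 bases from Tnfrsf1a, the receptor of TNF and soluble lymphotoxin alpha (ENSMUSG00000030341, chr6:125349362-125362484, plus strand), with Scnn1a between them. Ltbr ranged from 25.6 CPM in 408 through a median of 45.5 to 64.1 in 427 in the size-selected samples, and from 3.40 in 447 through 7.93 to 9.35 in 436 in whole spleen. All size-selected samples were above all whole spleen samples. The log2 fold change of Ltbr was 2.56 (SE 0.21, edgeR adjusted p = 5.43e-09), or 5.91-fold, with all 8 pairs higher.

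Tnfrsf1a was the more abundant of these receptors and the less different. It ranged from 97.0 CPM in 435 through a median of 152 to 214 in 427 in the size-selected samples, and from 53.9 in 447 through 62.5 to 72.9 in 407 in whole spleen. The groups did not overlap. Its log2 fold change was 1.27 (SE 0.13, edgeR adjusted p = 9.85e-08), or 2.40-fold, with all 8 pairs higher. Its size-selected values also carry a constant below 1, and the log2 fold change with that divided out was 1.34.

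Tnfrsf11a encodes RANK, the receptor of RANK ligand on osteoclast precursors, macrophages and dendritic cells (ENSMUSG00000026321, chr1:105780718-105847981, plus strand). It ranged from 15.9 CPM in 435 through a median of 26.8 to 42.9 in 460 in the size-selected samples, and from 4.28 in 407 through 5.22 to 8.86 in 445 in whole spleen. No size-selected sample was as low as any whole spleen sample. Tnfrsf11a thus had a log2 fold change of 2.21, with SE 0.21 (edgeR adjusted p = 3.53e-08), or 4.62-fold, with all 8 pairs higher. Among markers of cells known to carry RANK, macrophage markers (Adgre1, Csf1r, C1qa, C1qb, C1qc, Spic and Cd5l) were called higher for 3 of 7 and lower for none, with summed levels of 1933 to 4948 CPM against 1375 to 2334. With the number as a replicate block 5 of the 7 were called higher. Of all genes 37.5% were called higher and 30.4% lower. Dendritic cell markers were called higher for 1 of 6 (Zbtb46) and lower for 3 of 6. What part those cells have in the Tnfrsf11a difference was not tested.

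Tnfrsf11b encodes osteoprotegerin, the secreted decoy of RANK ligand (ENSMUSG00000063727, chr15:54250619-54278484, minus strand). It was the rarest receptor. Its counts were 13 to 69 in the size-selected samples, and in whole spleen they were 0 in 4 samples (407, 408, 435 and 447) and at most 18, in 427. A count of 0 allows up to 3 counts, or 0.196 to 0.233 CPM in those 4 samples, for counting error only. In CPM Tnfrsf11b ranged from 0.9 in 408 through a median of 2.66 to 5.04 in 445 in the size-selected samples, and from 0 through 0.193 to 1.47 in whole spleen. The 7 size-selected samples other than 408 were above every whole spleen sample. Its log2 fold change was 2.90 (SE 0.67, edgeR adjusted p = 0.000912), with all 8 pairs higher, and it was 3.57 without number 427 (edgeR adjusted p = 0.000204) and 3.96 with limma-voom. In the 4 male pairs alone it was 2.75 and no longer called (edgeR adjusted p = 0.0765).

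Tnfrsf13c encodes the BAFF receptor of B cells (ENSMUSG00000068105, chr15:82221743-82224369, minus strand). It ranged from 29.9 CPM in 427 through a median of 108 to 205 in 408 in the size-selected samples, and from 188 in 427 through 238 to 271 in 408 in whole spleen. Number 427 was the lowest and 408 the highest in both fractions, and the 7 size-selected samples other than 408 were below all whole spleen samples. The log2 fold change was -1.07 (SE 0.24, edgeR adjusted p = 0.00054), or 2.10-fold lower, with all 8 pairs lower. Without number 427 it was -0.97 (edgeR adjusted p = 2.99e-05), and in the 4 male pairs alone it was -1.02 and not called (edgeR adjusted p = 0.0772). The B cell markers had a median log2 fold change of -1.19 between the same fractions. That is the value of Blk, whose size-selected values carry a constant below 1. With constants divided out Blk was at -0.94 and Tnfrsf13c, which carries none, was at -1.12. The part of B cell number in the Tnfrsf13c difference was not tested.

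**Figure D2:**
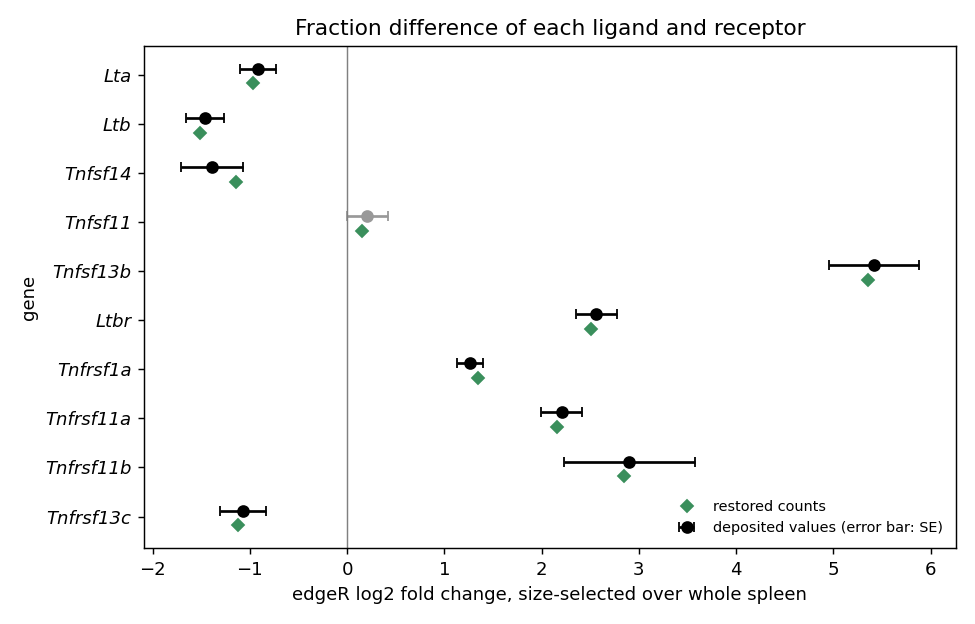
Log2 fold change (size-selected against whole spleen, edgeR) of each gene from the deposited values (circles, bars are 1 standard error) and with the constants divided out (diamonds). Gray marks Tnfsf11, which was not called, at 0.21, and of the others 5 lie above 0 and 4 below it.

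On the scale of CPM per kilobase of the longest coding transcript, which allows levels of different genes to be compared, Ltb was the most abundant of the 10 in both fractions. Its mean was 106 in the size-selected samples and 293 in whole spleen. In whole spleen Tnfrsf13c followed at 117 and Tnfrsf1a at 29.5, and the ranges of these 3 neighbours did not overlap. Lta at 3.61, Ltbr at 3.45, Tnfsf11 at 2.39, Tnfsf14 at 1.46 and Tnfrsf11a at 1.20 overlapped each with the next, and Tnfrsf11b at 0.132 and Tnfsf13b at 0.091 lay lowest and overlapped each other. The size-selected order was Ltb, Tnfrsf1a at 71.0, Tnfrsf13c at 55.4, Ltbr at 20.4, Tnfrsf11a at 5.53, Tnfsf13b at 3.92, Tnfsf11 at 2.77, Lta at 1.91, Tnfrsf11b at 0.988 and Tnfsf14 at 0.549. There, Ltbr and Tnfrsf11a were the only neighbours without overlap. By its mean on this scale, Tnfsf13b moved from the last place in whole spleen to the sixth in the size-selected samples, but neither place was firm. Tnfrsf11b was above Tnfsf13b in 4 of 8 whole spleen samples, and Tnfsf13b was above Tnfsf11 in 5 of 8 size-selected samples. Per kilobase of all exons joined, the size-selected mean of Tnfsf13b was 2.73, below that of Tnfsf11 at 2.77.

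Ligand and receptor were next set against each other within each library, as the ratio of their estimated counts with 0.5 added to each (not per length), which needs no scaling between libraries. The median ratio of Ltb to Ltbr was 44.2 in whole spleen (30.3 to 119) and 2.87 in the size-selected samples (0.738 to 7.15). In 1 of the 8 size-selected samples, 427, the receptor thus had more counts than the ligand. The ratio of Tnfsf11 to Tnfrsf11a was 0.887 (0.642 to 1.41) in whole spleen and 0.242 (0.109 to 0.391) in the size-selected samples, although Tnfsf11 itself was not called. Tnfsf11 could be set against its decoy Tnfrsf11b only in part, because the decoy had 0 counts in 4 whole spleen samples. With no count added, the ratio was 1.08 to 9.15 in the size-selected samples and 3.06 to 16.7 in the 4 whole spleen samples with decoy counts, so the ranges overlapped. In the other 4 it was at least 14 to at least 29, taking 3 counts per library as what a count of 0 allows. For BAFF and its receptor the ratio rose, from 0.00216 (0.000438 to 0.00436) in whole spleen to 0.148 (0.056 to 1.3). Its lowest whole spleen value rests on 1 count of Tnfsf13b, in 445.

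On the log2 scale the ratio differed between the fractions by -4.10 for Ltb to Ltbr, with means of 1.48 ± 1.00 (SD, n = 8) in size-selected and 5.58 ± 0.64 in whole spleen samples. It differed by -2.0 for Tnfsf11 to Tnfrsf11a and by 6.71 for Tnfsf13b to Tnfrsf13c. For Tnfsf11 to Tnfrsf11b the difference depended on the count added: it was -3.76 with 0.5 and -2.72 with 2. With none added and the counts of 0 set to 3, an alternative chosen after the data were seen, it was -2.49 (exact permutation p = 0.000622). Each of the 4 ratios moved the same way in all 8 pairs. The exact two-sided permutation test over 12870 splits gave p = 0.000155 for 3 of them, the smallest that 8 against 8 can give, and p = 0.000777 for Tnfsf11 to Tnfrsf11b. Benjamini-Hochberg adjustment over the 4 gave 0.000207 for the 3 and 0.000777 for the fourth. All these tests split the samples freely and leave out the pairing by number, so their p-values are not those of a paired test. These ratios are built from the genes already described and share their differences.

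**Figure D3:**
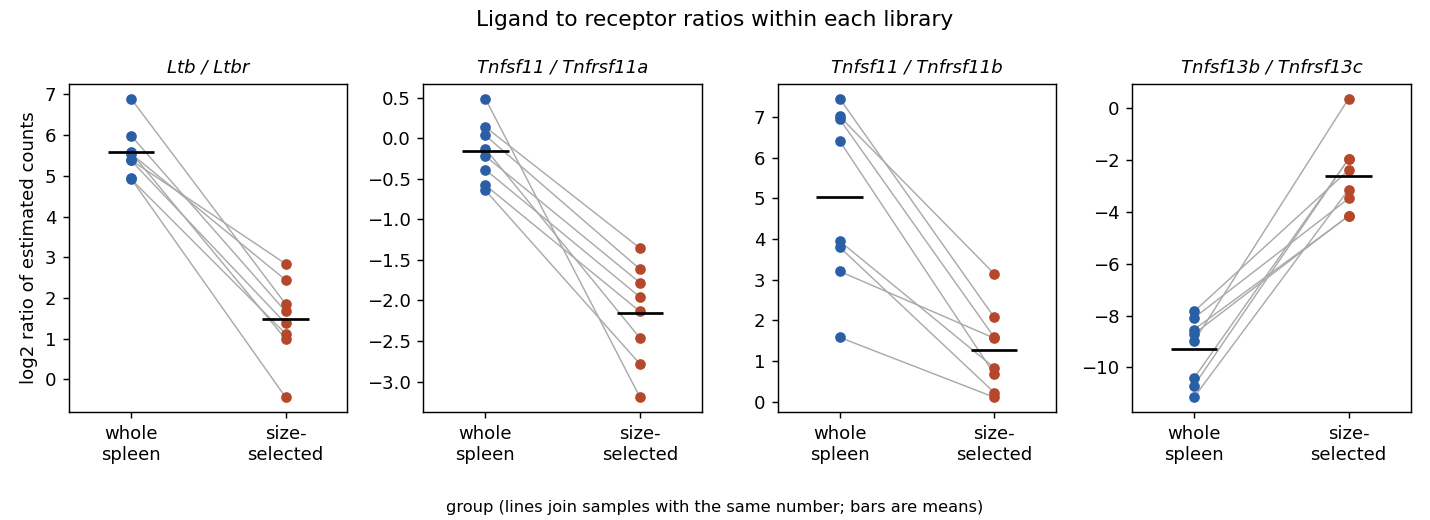
Log2 ratio of ligand to receptor counts (0.5 added to each, which sets the 4 whole spleen points of Tnfsf11 to Tnfrsf11b with decoy counts of 0) in every sample, with bars at the means and lines joining the 2 samples of a number. The first 3 ratios are lower in the size-selected samples and the ratio of Tnfsf13b to Tnfrsf13c is higher, in all 8 pairs.

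The rest of the TNF family was examined by lists. Of 11 other ligands that passed the filter (of 13), 6 were higher, 4 were lower and 1 was not called, where 37.5% of all genes were higher and 30.4% lower. In the males alone 5 were higher and 2 lower, beside 3975 and 2799 of all 14642 genes tested there. The median of the 11 ligands with both sexes was 1.28, beside 0.05 for all genes tested. Tnfsf13 encodes APRIL, the relative of BAFF, and its mean rose from 7.5 ± 2.21 to 35.9 ± 15 CPM (SD, n = 8; log2 fold change 2.26, SE 0.25, edgeR adjusted p = 2.19e-07). Tnfsf12 encodes TWEAK and its log2 fold change was 2.53, with its receptor Tnfrsf12a also at 2.53. Tnfsf12, Tnfsf13 and the readthrough gene Tnfsfm13 share exons, so the counts of this locus are uncertain between them. The other leading rises were Eda, encoding ectodysplasin, at 3.50 and Tnfsf10, encoding TRAIL, at 1.65. Eda was at 0.148 ± 0.249 CPM in whole spleen (SD, n = 8), and its log2 fold change was 4.13 with limma-voom, 4.41 without number 407, 4.65 in the females alone and 2.64 in the males alone. Those with the lowest values were Fasl at -1.55, Cd40lg, the helper ligand of T cells, at -1.34 and Tnf at -0.81, with Tnfsf4 (OX40 ligand), outside the naming rule, next at -0.76. Tnf lies between Ltb and Lta, and its mean was 23.5 ± 4.5 CPM in the size-selected and 41.1 ± 6.29 in whole spleen samples. With the constants of its deposited values divided out, its log2 fold change was -0.41 (edgeR adjusted p = 0.00748), and that of Tnfsf4 was -0.82. Fasl also carries a constant. With it divided out Fasl was at -1.30, and Cd40lg, at -1.39, was then the lowest of these ligands.

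Of 22 other receptors that passed the filter (of 23), 10 were higher, 8 were lower and 4 were not called, with a median of 0.10. Those shares were near the 37.5% and 30.4% of all genes. The males alone had 5 higher and 6 lower, beside 3975 and 2799 of all 14642 genes tested there. Eda2r, a receptor of an ectodysplasin isoform, had the largest difference, at 6.09, from 0.0277 ± 0.0559 to 2.39 ± 1.48 CPM (SD, n = 8). Its whole spleen counts were at or near 0, and the value was 5.38 with limma-voom, 7.15 without number 408, 6.92 in the females alone and 5.20 in the males alone. Tnfrsf12a rose from 18 ± 1.76 to 104 ± 36.9 CPM and Tnfrsf21, the death receptor DR6, from 31.5 ± 7.07 to 125 ± 27.3 CPM. Tnfrsf19 was at 1.79 (edgeR adjusted p = 0.00503), and at 2.21 with its constant divided out. It was at 2.82 in the females alone, and at 0.71 and not called in the males alone. The receptors with the lowest values were Tnfrsf18 (GITR) at -1.56, Tnfrsf4 (OX40) at -1.50 and Tnfrsf25 (DR3) at -1.29 (SE 0.42). Cd40, outside the rule for naming genes, was close to the last at -1.26 (SE 0.17), and at -0.56 with its constants divided out. Tnfrsf14, the second receptor of LIGHT, and Tnfrsf13b, which encodes the BAFF and APRIL receptor TACI, were picked after their values were seen. Tnfrsf14 was at 0.22 (edgeR adjusted p = 0.588) and Tnfrsf13b at -1.01 (edgeR adjusted p = 3.08e-05), or at -0.77 with its constant divided out.

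Downstream of the receptors, 9 of 23 genes of NF-kB signalling were higher, 10 were lower and 4 were not called, with a median of 0.02. The share higher was near the 37.5% of all genes, and the share lower was above their 30.4% in this fit. Library totals gave 10 higher and 5 lower. The males alone gave 4 and 5, beside 3975 and 2799 of all 14642 genes tested there. A log2 fold change of 1 or more in either direction was met by 1 higher and 1 lower gene of the list. The largest rise was that of Nfkbia, the inhibitor of NF-kB that is itself an NF-kB target, at 1.03, from 783 ± 113 to 1595 ± 322 CPM (SD, n = 8). Birc2 rose by 0.90, Tnfaip3 (A20) by 0.88 and Ripk1 by 0.78. Nfkb1, which encodes p50 and its precursor, fell by 1.21, from 185 ± 30.4 to 80.0 ± 15.2 CPM, and the adaptors Traf1 and Tradd fell by 0.56 and 0.55. Of the noncanonical pathway that the lymphotoxin-beta receptor uses, 4 genes were picked after their values were seen. Map3k14, encoding the kinase NIK, was at -0.41 (edgeR adjusted p = 0.0353, and 0.0599 with the number as a replicate block). Chuk, encoding the kinase IKK-alpha, was at 0.30 (edgeR adjusted p = 0.076, and 0.0477 with the replicate block). Nfkb2 was at -0.15 (edgeR adjusted p = 0.164). Relb was at -0.25 (edgeR adjusted p = 0.00513), and at -0.01 with its constants divided out.

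The list of lymphoid stromal organiser genes holds chemokines, adhesion molecules and a cytokine of lymphoid stromal cells, with the stromal surface proteins Pdpn and Bst1, and all 9 of 9 were higher, with a median of 5.05. Of all genes tested 37.5% were higher and 30.4% lower, with a median of 0.05. Pdpn and Il7 averaged 0.0727 and 0.316 CPM in whole spleen and passed the filter on low counts through the size-selected samples. Cxcl13, which attracts B cells into follicles, was 340 ± 170 CPM in the size-selected samples and 6.47 ± 4.64 in whole spleen (SD, n = 8; log2 fold change 5.73, SE 0.44, edgeR adjusted p = 2.75e-09). Ccl19, a ligand of CCR7 in the T cell zone, was 298 ± 140 against 3.04 ± 2.81 CPM (6.64), and Ccl21a, the other such ligand, was 364 ± 192 against 6.19 ± 6.89 CPM (5.89). Both chemokines have near-identical copies in the mouse genome, so their counts are uncertain between copies. Il7, the lymphocyte survival cytokine, was 18.5 ± 7.61 against 0.316 ± 0.386 CPM (5.90, and 6.89 with limma-voom). In the females alone these values were 7.86 for Ccl19, 6.91 for Ccl21a and 6.54 for Il7, and in the males alone 5.89 for Ccl19 and 5.31 for Ccl21a. The same samples had 7 of 7 fibroblast markers higher with a median of 7.24, and the part of stromal cell content in the rise of these genes was not tested. Markers of follicular dendritic cells, which depend on lymphotoxin, were 4 higher, 1 lower and 1 not called of 6. The shares of all genes were 37.5% higher and 30.4% lower. The markers called higher were Mfge8, Clu, Prnp and Fcgr2b, and the lower one was Fcer2a at -1.37 (edgeR adjusted p = 3.35e-05), or -1.12 with its constant divided out. Fcgr2b was at only 0.36 (edgeR adjusted p = 0.0218), with a mean of 91.5 CPM in whole spleen. Cr2 was at 0.04 (edgeR adjusted p = 0.884), and B cells also express both Fcer2a and Cr2. Which cells supply the RNA of the 6 markers was not tested. Strand use in the counting is not given in the sources used here, and Il7, Tnfsf13, Tnfrsf18, Ripk1, Nfkb2, Fcgr2b and Csf1r share exonic bases with genes on the opposite strand, as do Vcam1, Icam1 and Bst1 of the organiser list. Map3k14, Prnp and Ripk1 overlap the exons of other genes on the same strand. Reads of such pairs are uncertain between them.

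**Figure D4:**
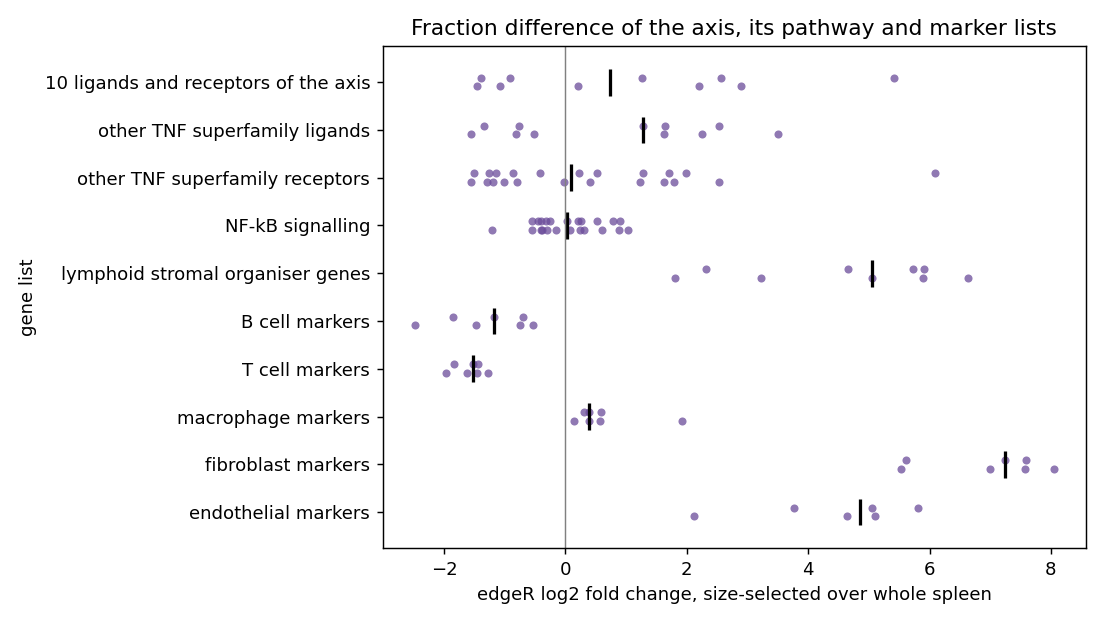
Log2 fold change (size-selected against whole spleen) of every tested gene (1 point each) in the list of the 10 genes, the pathway lists and 5 of the marker lists, with a bar at each list's median. The 9 lymphoid stromal organiser genes all lie above 0 with a median of 5.05, while the 23 NF-kB genes lie around 0.02.

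Genes with the profile most like each member over the 16 samples were found by the root mean square difference of centred log2 CPM, among the 9306 or 9307 other genes whose log2 CPM averaged 3 or more. The difference between the fractions was left in, so a short distance in part restates a similar log2 fold change. Ptprcap, which encodes a protein bound to the lymphocyte phosphatase CD45, followed Ltb most closely, at 0.1 where the median gene was at 0.876. Tnfrsf13c was nearest to Neil1, at 0.154, and Lta to Ppp1cc, at 0.182. Ltbr was nearest to Socs2, at 0.251 with a median of 1.41, and Tnfrsf1a to Rap2a, at 0.142. Tnfrsf11a was nearest to Tbc1d2b, at 0.213, and then to Zbtb46, at 0.271, a transcription factor of dendritic cells that endothelial cells also express. Tnfsf14 was nearest to Itgb7, at 0.361, and Runx3, at 0.365. For Tnfsf13b the nearest were Cald1, at 0.577, and Ccl7, at 0.604, where the median gene was at 2.71. The rare Tnfrsf11b had no close match, Mr1 being nearest at 0.805. Tnfsf11 was nearest to Osbpl9, at 0.228.

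Within the 8 size-selected samples the genes were set against scores of 4 marker lists (mean log2 CPM of B cell, macrophage, fibroblast and endothelial markers), which made 40 relations, chosen after the data were seen. Of these, 15 had a Pearson r with an adjusted p under 0.05 and 3 had both r and Spearman's rho so. Ltbr was lower where B cell markers were higher (r = -0.959, exact permutation p = 0.000719, adjusted 0.0238; rho = -0.976, exact p = 0.000397, adjusted 0.00794), and without 427 and 408, the samples farthest from the median score, r was -0.953. Tnfrsf1a had r = -0.94 (exact permutation p = 0.00119, adjusted 0.0238) and rho = -0.976 (exact p = 0.000397, adjusted 0.00794), with r = -0.998 without those samples. The third was Tnfrsf13c with the fibroblast score (r = -0.77, exact permutation p = 0.00583, adjusted 0.0384; rho = -0.952, exact p = 0.00114, adjusted 0.0152), with r = -0.831 without 436 and 427.

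Ltb rose with the B cell score at r = 0.868 (exact permutation p = 0.00625, adjusted 0.0384) and rho = 0.738 (exact p = 0.0458, adjusted 0.141), and r was 0.455 without 427 and 408. Tnfrsf13c with the B cell score had r = 0.856 (exact permutation p = 0.0121, adjusted 0.0403) and rho = 0.69 (exact p = 0.0694, adjusted 0.185), and r was 0.226 without them. Both relations rest on those 2 samples. Ltb also fell with the fibroblast score (r = -0.826, exact permutation p = 0.00481, adjusted 0.0384; rho = -0.833, exact p = 0.0154, adjusted 0.112), with r = -0.897 without 436 and 427. With the endothelial score Ltb had r = -0.81 (exact permutation p = 0.0133, adjusted 0.0409; rho = -0.786, exact p = 0.0279, adjusted 0.112), and -0.855 without 408 and 435. Ltbr rose with the endothelial score (r = 0.957, exact permutation p = 0.00203, adjusted 0.0271; rho = 0.738, exact p = 0.0458, adjusted 0.141), with r = 0.813 without those samples. Tnfsf13b fell with the B cell score at r = -0.839 (exact permutation p = 0.012, adjusted 0.0403) and rho = -0.786 (exact p = 0.0279, adjusted 0.112), with r = -0.788 without 427 and 408. The other 6 relations whose r passed after adjustment had a rho that did not. With the fibroblast score Tnfsf13b had r = 0.816 (exact permutation p = 0.012, adjusted 0.0403; rho = 0.833, exact p = 0.0154, adjusted 0.112), and 0.766 without 436 and 427. With the endothelial score Tnfrsf1a had r = 0.877 (exact permutation p = 0.00692, adjusted 0.0384; rho = 0.786, exact p = 0.0279, adjusted 0.112), and 0.887 without 408 and 435. Tnfrsf13c had r = -0.809 with that score (exact permutation p = 0.0151, adjusted 0.0431; rho = -0.69, exact p = 0.0694, adjusted 0.185), and -0.876 without them. The 3 relations with the macrophage score were those of Ltb, Tnfsf11 and Tnfrsf13c. Ltb had r = -0.812 (exact permutation p = 0.00769, adjusted 0.0384; rho = -0.619, exact p = 0.115, adjusted 0.209), and -0.438 without 427 and 460. Tnfsf11 had r = -0.811 (exact permutation p = 0.011, adjusted 0.0403; rho = -0.81, exact p = 0.0218, adjusted 0.112), and -0.451 without them, so that both relations rest on those samples. Tnfrsf13c had r = -0.781 (exact permutation p = 0.0171, adjusted 0.0456; rho = -0.31, exact p = 0.462, adjusted 0.513), and -0.714 without them. All values of a sample share 1 library and its scaling, and the sexes, with 4 samples each, are too small for an r of their own.

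**Figure D5:**
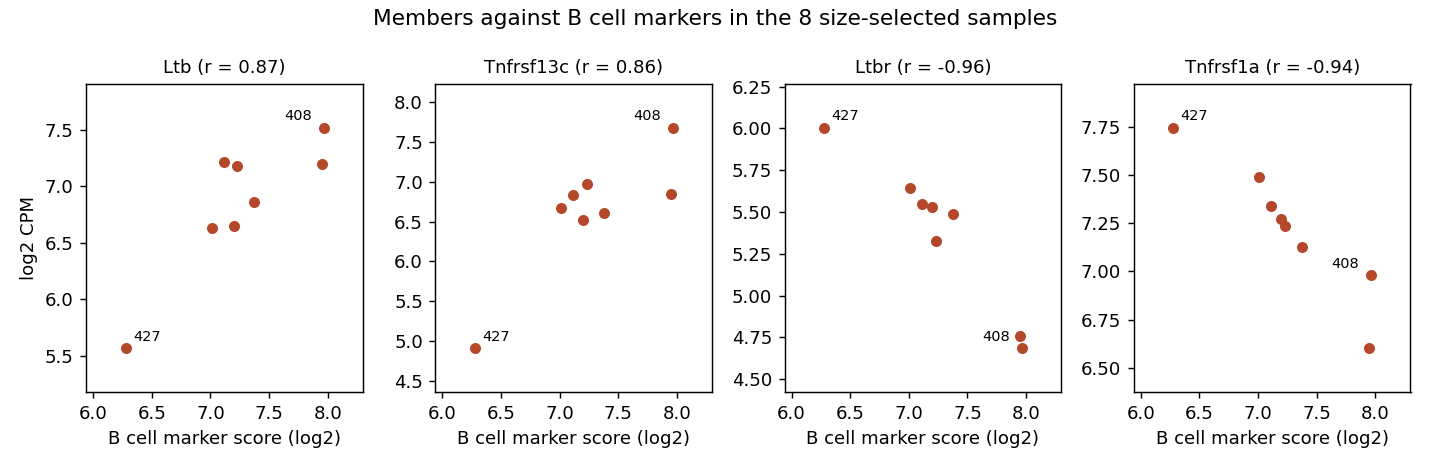
Log2 CPM of Ltb, Tnfrsf13c, Ltbr and Tnfrsf1a (vertical axes, each on its own scale) against the B cell marker score (mean log2 CPM of the B cell markers) in the 8 size-selected samples, with r above each panel. Number 427 has the lowest score and 408 the highest, and Ltbr and Tnfrsf1a fall from left to right.

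Females and males differed at none of the 10 genes by the adjusted test. In whole spleen 8 of the 10 passed the filter and 0 were called, beside 0.194% of all genes. In the size-selected samples all 10 passed and 0 were called, beside 0.0397%. At an unadjusted p under 0.05 there was 1 gene in each. Tnfsf11 in whole spleen was 6.46 ± 1.16 CPM in females and 4.23 ± 0.689 in males (SD, n = 4; log2 difference 0.60, SE 0.25, edgeR adjusted p = 0.266). Tnfrsf11a in the size-selected samples was 33.0 ± 7.44 CPM in females and 22.6 ± 5.30 in males (log2 difference 0.53, SE 0.21, edgeR adjusted p = 0.999). DESeq2 called 0 of the 10 in either fraction as well. The interaction of sex and fraction, which asks whether the difference between the fractions depends on sex, was called for 0 of the 10, beside 0.0% of all genes, and for 0 at an unadjusted p under 0.05. Its estimates ran from -0.49 for Tnfsf11 to 0.88 for Tnfsf13b (SE 0.93). The latter was not stable, running from 0.41 without number 460 to 2.40 without number 447, and was called in neither.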

How the data were processed

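RNA-seq of 8 size-selected and 8 whole spleen samples was analysed from the authors' deposited table of estimated counts per gene. The submitters' processing notes name Trim Galore, STAR, RSEM, DESeq and mm10, without versions. For 3898 genes the deposited size-selected values are 2-decimal estimates times 1 to 3 constants below 1; this was read from the values, and no label or header speaks of it. Of the 10 genes, Tnfsf14 and Tnfrsf1a carry one. Dividing by the constants gave restored counts. The authors' deposited table of their own comparison holds, per the file headers, a base mean signal, log2 fold changes and their SE, a test score, raw and adjusted p-values, and group means of TPM and FPKM. Of these the log2 fold change, its standard error, the adjusted p and the TPM of 1 gene are printed here.

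The deposited counts were rounded to integers and tested with edgeR 4.0.16 in R 4.3.3 (filterByExpr with a minimum count of 10, TMM scaling, quasi-likelihood F test, Benjamini-Hochberg adjustment over all genes tested, calls at an adjusted p under 0.05), with the group as the only term. Sex was tested within each fraction and as an interaction. Depth was 12153770 to 19944440 estimated counts, and intervals for counts of 0 cover counting error only. Log2 CPM used a prior count of 2. Ratios used exact permutation over all samples, without the pairing. Positions are 1-based on GRCm38, from GENCODE M21, and 54723 of the 54838 identifiers were found there. The fits were tested on simulated data.

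The numbers were taken to pair the samples. Deviations from the mean of a group correlated at 0.12 to 0.375 between samples of the same number (14510 genes) and at a mean of -0.0287 between different numbers, and 8 of 8 samples correlated best with their own number. The pairing comes from the number in the labels, not from a statement on animals.

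The 10 genes and all lists were chosen with earlier results of these data known. From each pathway list the text names up to 4 called genes with the largest rise and up to 3 with the largest fall, and for each of the 10 genes the nearest of the 2 most alike, or both. Alternatives were RLE scaling, library totals, no count filter, DESeq2 1.42.0, limma-voom (limma 3.58.1), restored counts, single sexes, a fold minimum, a replicate block by number, a sex term and leaving out each number. Some marker genes are not reported here.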

Additional observations from a re-analysis of the deposited data

Results flagged for a closer look

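Of 28 groups of samples screened for a value far from the others (Dixon's ratio, which chance alone passes in about 1 group of 20, or 1.4 here), 2 were marked, both in number 427 of the size-selected samples. Ltb was at 5.566 log2 CPM there, with the other 7 samples between 6.634 and 7.52. Tnfrsf13c was at 4.91 log2 CPM, with the others between 6.518 and 7.678. The same sample had the lowest summed level of B cell markers (926 CPM) and of T cell markers (74.6 CPM) of the 8. Without number 427, 9 of the 10 genes were called by edgeR, as with it.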

How the results depend on the processing

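The 9 calls among the 10 genes were kept under each alternative that uses both sexes and no fold minimum. With the fold minimum 8 were called, Lta being lost, and in the males alone 6, with Lta, Tnfrsf11b and Tnfrsf13c lost. Of all genes, 6774 of 14642 tested were called in the males alone, against 9855 of 14510 with both sexes. The log2 fold change of Tnfsf11 turned to -0.0094 in the females alone. With the number as a replicate block no call among the 10 genes changed, and edgeR called 10076 genes in place of 9855. The fold minimum left 4844 genes called. Leaving out each number gave 9249 to 9823 genes. Library totals gave 6041 higher and 3442 lower, against 5446 and 4409.

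For sex in whole spleen, edgeR called 26 genes, 273 without a count filter and 521 with DESeq2, and 7 (without 460) to 261 (without 427) on leaving out 1 number. In the size-selected samples it called 6, DESeq2 22, and leaving out 1 number gave 5 to 6. The interaction had 0 genes called by edgeR (744 had an unadjusted p below 0.05), 3 with DESeq2, 3 with the number as a replicate block, and 0 to 1 on leaving out 1 number. The causes were not tested. None of these called any of the 10 genes. Counts of Tnfsf14, Tnfrsf11b and, in whole spleen, Tnfsf13b are low and limit the precision of their fold changes.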
